A study of Mus musculus with 16 samples.

Results

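The transcripts described here encode 5 receptors that couple to the stimulatory G protein Gs, namely the PGE2 receptors EP2 (Ptger2) and EP4 (Ptger4), the prostacyclin receptor IP (Ptgir) and the adenosine receptors A2a (Adora2a) and A2b (Adora2b), together with Gnas, the gene of the alpha subunit of Gs. The 6 genes were taken by symbol from the 54532 genes of the count table, and all 6 passed the filter on low counts in every comparison. CD8+ T cells were isolated as naive cells from spleens of C57BL/6J mice and cultured for 4 days under repeated activation with CD3/CD28 beads in low-dose IL-2, which keeps the transcription factor TCF1. The cells were then given 100 ng/ml PGE2 for 1 h or no PGE2, followed by 4 h in IL-2 at 85 U/ml, either alone (called unstimulated) or with CD3/CD28 beads at 1 bead per cell (called stimulated). All 4 groups were wild-type, had IL-2 throughout and had met beads during the 4 days of culture, so the unstimulated cells are not resting naive cells. Each group had 4 replicates, and the labels do not say whether these are separate mice or cultures. The p-values therefore measure the spread between these samples, which may be technical in part.

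When an agonist binds EP2, EP4, IP, A2a or A2b, the alpha subunit of Gs exchanges GDP for GTP and activates adenylyl cyclase, which makes cAMP. The cAMP in turn activates protein kinase A, and in T cells this route restrains signalling from the T cell receptor. PGE2 is made by cells of inflamed tissue and tumours, and adenosine builds up outside cells when released ATP is broken down, so CD8+ T cells in tumours can meet both ligands.

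Libraries held between 22678254 and 42950763 counts. The labelled cell type was checked against markers: all 8 markers of CD8+ T cells had means above 1 CPM (counts scaled to the library size with TMM factors) in every group, with Cd8a at group means of 719 to 1150 CPM, whereas 7 of 8 myeloid markers and 4 of 6 B cell markers had means under 1 CPM in every group. Tcf7, the gene of TCF1, was not level: its means were 1170 CPM in unstimulated cells without PGE2 and 1190 CPM with PGE2. In stimulated cells they were 309 CPM without PGE2 and 407 CPM with PGE2. The summed level of the 8 myeloid markers was 3.04 to 6.59 CPM over all samples, and that of the 6 B cell markers 4.47 to 21.9 CPM. Of the 4 CD4+ T cell markers, Cd4 had a mean under 1 CPM in every group, and the 4 summed to 18 to 40.6 CPM. The other CD4+ T cell markers were counted, with group means of 15 to 27.3 CPM for Zbtb7b and 4.24 to 5.93 CPM for Foxp3. Cd40lg had group means of 0.366 to 2.91 CPM. Of the NK cell markers, Ncr1 and Klrb1c were near 0, while Eomes and Klrd1, which CD8+ T cells also express, carried most of a sum of 174 to 411 CPM. The part of other cell types in the results was not tested. In bulk RNA, fewer cells that express a gene and less of its RNA per cell cannot be told apart.

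The 6 genes lie on separate chromosomes (mouse build GRCm38, all protein coding). Ptger2 is at chr14:44988195-45003820 on the plus strand, Ptger4 at chr15:5206661-5244187 on the minus strand and Ptgir at chr7:16906490-16910905 on the plus strand. Adora2a is at chr10:75316877-75334784, Adora2b at chr11:62248984-62266453 and Gnas at chr2:174284320-174346744, all on the plus strand. The stretches of 250 bases before the RefSeq start sites (GRCm38.p6) are shown for the PGE2 receptors, whose transcripts fell together with PGE2 in stimulated cells, and for Adora2b, whose transcript had the largest change of the 6 with stimulation. RefSeq promoter entries were matched for 5 of the 6 genes. Capitals mark matches on either strand to the CCAAT box (CCAAT) and the GC box (GGGCGG).
Ptger2, chr14:44987861-44988110, plus strand: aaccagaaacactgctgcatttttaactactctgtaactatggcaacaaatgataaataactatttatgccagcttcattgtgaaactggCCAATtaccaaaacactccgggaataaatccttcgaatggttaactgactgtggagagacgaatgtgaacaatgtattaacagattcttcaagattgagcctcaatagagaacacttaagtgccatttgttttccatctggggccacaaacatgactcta
Ptger4, chr15:5244188-5244437, minus strand: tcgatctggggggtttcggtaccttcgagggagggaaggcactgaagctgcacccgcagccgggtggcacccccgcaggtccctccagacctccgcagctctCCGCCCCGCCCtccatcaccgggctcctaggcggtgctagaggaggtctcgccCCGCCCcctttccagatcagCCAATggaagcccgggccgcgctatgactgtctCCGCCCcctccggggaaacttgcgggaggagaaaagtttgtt
Adora2b, chr11:62248734-62248983, plus strand: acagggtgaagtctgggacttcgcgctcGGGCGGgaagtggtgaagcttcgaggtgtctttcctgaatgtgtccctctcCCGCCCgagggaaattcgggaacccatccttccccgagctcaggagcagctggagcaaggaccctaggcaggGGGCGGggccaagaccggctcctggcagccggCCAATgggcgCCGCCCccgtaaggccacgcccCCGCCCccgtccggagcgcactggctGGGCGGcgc
The stretch before Ptger2 had a GC content of 38%, which was above that of 8.47% of the 32851 promoters in the RefSeq table, and it held 1 CCAAT box and no GC box. The RefSeq start of Ptger2 lies 84 bases before the start that the count table gives. The stretch before Ptger4 had 66.8% GC (85.8% of promoters were lower), with 1 CCAAT box and 4 GC boxes, of which 2 overlap by 1 base. The stretch before Adora2b had 69.6% GC (90.2% of promoters were lower), with 1 CCAAT box and 6 GC boxes. Over all promoters, 33.8% held a CCAAT box and 32.7% a GC box in stretches of this length. The motif to which the cAMP-responsive factor CREB binds (TGACGTCA, in 1.55% of promoters) and the AP-1 motif (TGANTCA, in 6.75%) were searched on both strands, and these letters were in none of the stretches of the 5 matched genes. The half-site of the CREB motif (TGACG, in 17.8% of promoters) was searched as well. It lay 38 to 34, 57 to 53 and 216 to 212 bases before RefSeq starts of Gnas, whose stretches are not shown. The first and second of these matches are the same bases in overlapping stretches. The other matched genes held no half-site. The motifs were chosen with the sequences in view, and a match or its absence in this window is a description only.

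EP2 and EP4 are the receptors through which PGE2 raises cAMP. Ptger2 stood at 6.44, 5.86, 6.67 and 5.63 CPM in the 4 unstimulated samples without PGE2 and at 8.15, 7.38, 7.71 and 7.56 CPM in those with PGE2. In stimulated cells it stood at 34, 31.7, 25.8 and 22.9 CPM without PGE2 and at 16.6, 16.7, 14.6 and 13.3 CPM with PGE2. The 4 groups did not overlap: Ptger2 was lowest in unstimulated cells without PGE2, a little higher in unstimulated cells with PGE2, and highest in stimulated cells without PGE2. Ptger4 stood at 32.3, 31.6, 34.4 and 35.1 CPM in unstimulated cells without PGE2 and at 23.8, 22.5, 20.4 and 22.2 CPM with PGE2. Ptger4 stood at 123, 116, 109 and 94.1 CPM in stimulated cells without PGE2 and at 72.5, 65, 53.2 and 43.8 CPM with PGE2. Within the stimulated and within the unstimulated cells, all Ptger4 values with PGE2 were below all values without it. All stimulated samples were above all unstimulated ones.

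**Figure D1:**
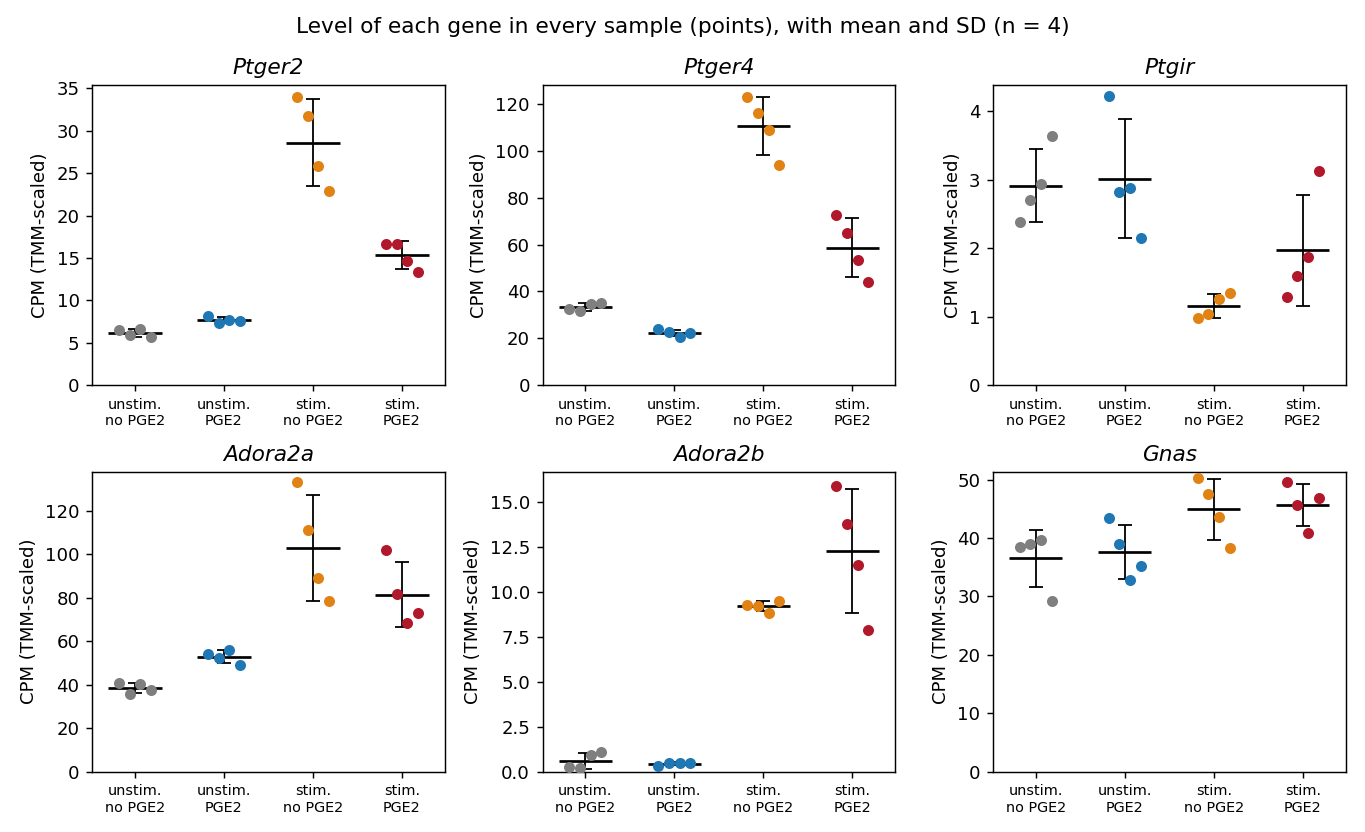
Level of the 6 genes in every sample, in CPM on a linear axis from 0 with its own range in each panel; points are samples (replicates 1 to 4 from left to right), bars the mean and SD of 4 samples. Ptger2 and Ptger4 reach means of 28.6 and 110 CPM in stimulated cells without PGE2 and 15.3 and 58.6 CPM with PGE2, without overlap, whereas the PGE2 and PGE2-free samples of Gnas overlap.

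The question of how PGE2 changes these transcripts in cells that meet the beads was tested between the stimulated groups. Ptger2 and Ptger4 fell, and the other 4 genes did not pass the test. Ptger2 fell 1.86-fold (log2 fold change -0.90, SE 0.132, adjusted p = 0.00291, edgeR's quasi-likelihood test with Benjamini-Hochberg adjustment over all tested genes). Ptger4 fell 1.87-fold (log2 fold change -0.90, SE 0.146, adjusted p = 0.00455). Thus 2 of 6 genes were called, where 9.84% of the 13922 tested genes were (6.04% higher and 3.8% lower), and the groups did not overlap for the same 2 genes, where 17.9% of tested genes did not overlap. Over 18 alternative settings, both genes remained called in all 18, with log2 fold changes from -0.99 to -0.71 for Ptger2 and from -1.02 to -0.79 for Ptger4. Neither reached a 2-fold change, which 1.75% of tested genes did among those called.

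For the other receptors the stimulated groups overlapped. Adora2a had 133, 111, 89.2 and 78.3 CPM without PGE2 and 102, 81.7, 68.3 and 73.1 CPM with it, a spread in which sample 1 was highest in both groups. Its log2 fold change was -0.33 (95% interval -0.70 to 0.04, adjusted p = 0.232). Adora2b had 9.26, 9.22, 8.84 and 9.5 CPM without PGE2 and 15.9, 13.8, 11.5 and 7.86 CPM with it. So 3 of the 4 PGE2 samples were above every sample without PGE2 and 1 was below them all, and the log2 fold change was 0.42 (0.01 to 0.83, adjusted p = 0.174). Ptgir had 0.979, 1.03, 1.25 and 1.35 CPM without PGE2 and 1.28, 1.59, 1.87 and 3.12 CPM with it, with a log2 fold change of 0.77 (0.13 to 1.41, adjusted p = 0.117). Ptgir rested on few reads, and its interval is wide.

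Samples with the same replicate number deviated together from their group means in this comparison, and with the number as a block 5 of the 6 genes passed the test, along with 5544 of all genes in place of 1370. In that fit Ptgir was at 0.72 (adjusted p = 0.0159), Adora2a at -0.32 (adjusted p = 0.00109) and Adora2b at 0.41 (adjusted p = 0.0429). The pairs agree in sign for 2 of the 3 genes: Adora2a was lower with PGE2 in all 4 pairs and Ptgir higher in all 4, whereas Adora2b was higher in 3 of 4. Single libraries also moved 2 of these calls. Without replicate 1 of the stimulated PGE2 group, Ptgir passed at 0.94 (adjusted p = 0.0468), and without replicate 4 of that group Adora2b passed at 0.58 (adjusted p = 0.0241). In the fit without the block, Adora2a was at -0.17 (adjusted p = 0.574) without replicate 1 of the stimulated untreated group.

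In cells kept in IL-2 alone, 3 genes passed the test with PGE2, and they did not all move the same way. Ptger4 fell 1.48-fold (log2 fold change -0.57, SE 0.0661, adjusted p = 0.000101), Adora2a rose 1.39-fold (0.48, SE 0.067, adjusted p = 0.000342) and Ptger2 rose 1.27-fold (0.34, SE 0.103, adjusted p = 0.0269). Adora2a stood at 40.8, 35.6, 40.1 and 37.4 CPM without PGE2 and at 54.2, 52.1, 56 and 48.9 CPM with it, and the groups did not overlap. These 3 of 6 genes compare with 28.4% of the 14505 tested genes called in this comparison (12.9% higher and 15.5% lower), and the same 3 genes had groups without overlap, against 28.9% of tested genes. None of the 6 reached a 2-fold change, which 3.38% of tested genes did among those called. Ptger4 and Adora2a remained called in all 18 alternatives. The rise of Ptger2 was called in 10 of 18, and its log2 fold change ran from 0.19 to 0.39. Its adjusted p was 0.0508 and 0.0664 without replicate 1 or 3 of the PGE2 group and 0.0685 and 0.0717 without replicate 2 or 4 of the untreated group. Ptgir (4.22, 2.82, 2.87 and 2.14 CPM with PGE2; 2.38, 2.7, 2.93 and 3.64 CPM without) had a log2 fold change of 0.05 (-0.42 to 0.51, adjusted p = 0.897).

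Adora2b was barely counted in unstimulated cells, at 0.265, 0.2, 0.929 and 1.08 CPM without PGE2 and 0.316, 0.507, 0.496 and 0.484 CPM with it, which overlap. Its log2 fold change with PGE2 was -0.47, with an interval of -1.54 to 0.60 that allows a change in either direction within these limits. In the 2 unstimulated groups, Gnas was at 38.4, 39, 39.6 and 29.3 CPM without PGE2 and 43.4, 39, 32.9 and 35.2 CPM with it. The groups overlapped, and the interval of the log2 fold change was -0.17 to 0.29. In stimulated cells the interval for Gnas was -0.18 to 0.24.

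**Figure D2:**
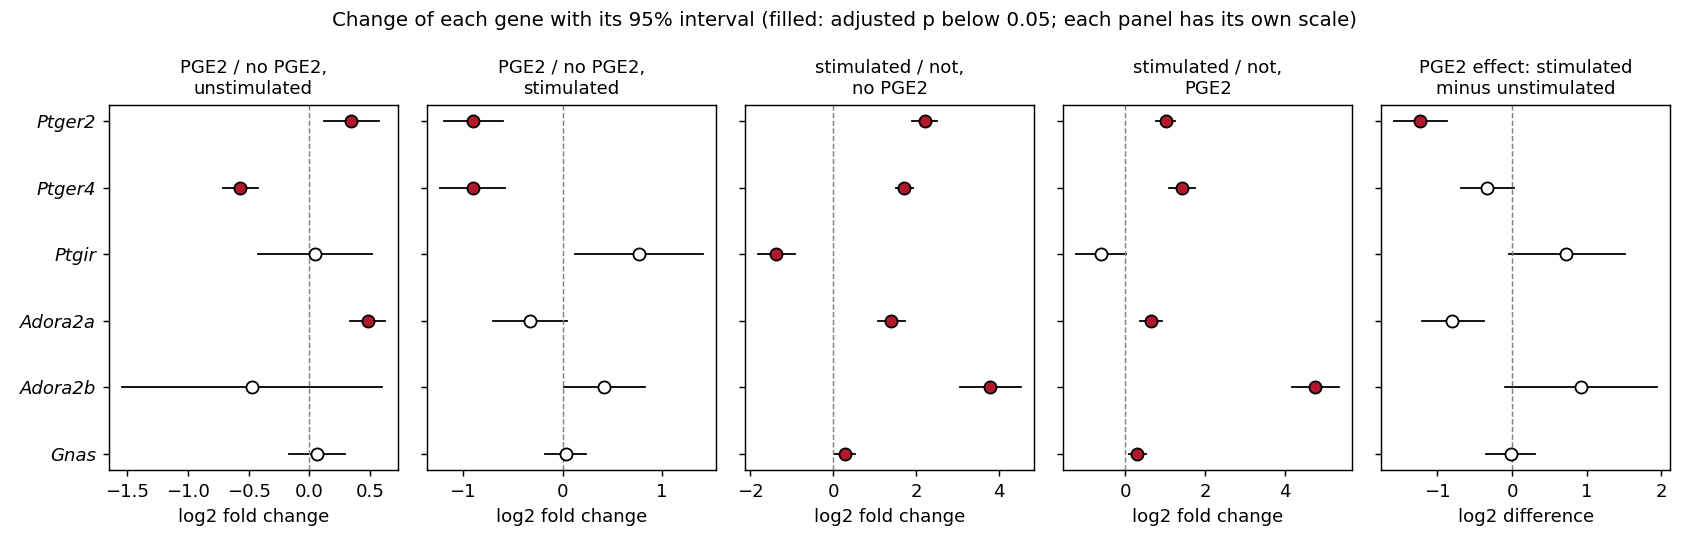
Log2 fold change of each gene in the 4 comparisons and the difference of the PGE2 effects (x axes, each with its own range), with 95% intervals as lines; filled points passed an adjusted p of 0.05 in edgeR's quasi-likelihood test. Ptger2 lies to the right of 0 with PGE2 in unstimulated cells (0.34) and to the left in stimulated cells (-0.90), and is the filled point of the last panel (-1.23).

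Whether the effect of PGE2 differs between stimulated and unstimulated cells was tested as an interaction over all 16 samples. Only Ptger2 passed among the 6 genes: its PGE2 effect was lower by 1.23 on the log2 scale in stimulated than in unstimulated cells (interaction -1.23, SE 0.169, adjusted p = 0.00336). That is 1 of 6 genes, where 0.749% of the 15096 tested genes were called (0.517% higher and 0.232% lower). The call held in all 25 alternatives, with values from -1.33 to -0.90. For Ptger4, which fell in both states, the difference was -0.33 (-0.69 to 0.03, adjusted p = 0.614). For Adora2a it was -0.80 (-1.21 to -0.38, adjusted p = 0.0724), and it passed in 6 of 25 alternatives, among them those without replicate 1 of the stimulated PGE2 group (-0.92, adjusted p = 0.0379) and without replicate 4 of the stimulated untreated group (-0.91, adjusted p = 0.0336). Ptgir (0.73, -0.04 to 1.51) and Adora2b (0.92, -0.10 to 1.95) did not pass and had wide intervals.

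Bead stimulation without PGE2 changed all 6 genes. Adora2b rose most, from a mean of 0.619 to 9.21 CPM (log2 fold change 3.80, SE 0.341, adjusted p = 8.00e-07), followed by Ptger2 (2.21, SE 0.141, adjusted p = 5.88e-08), Ptger4 (1.71, SE 0.0943, adjusted p = 2.55e-08) and Adora2a (1.41, SE 0.147, adjusted p = 2.92e-06). A2b is the adenosine receptor that needs the higher concentration of ligand, and its transcript had 6 to 36 counts per library in unstimulated and 219 to 350 in stimulated cells without PGE2. Ptgir went the other way and fell 2.58-fold (-1.37, SE 0.204, adjusted p = 6.66e-05). For these 5 receptors no stimulated sample overlapped with an unstimulated one. Among all tested genes 66.5% were called (31.7% higher and 34.8% lower) and 61.6% did not overlap, so the count of 6 has to be read against a comparison in which most genes moved. With a 2-fold change also required, 5 of the 6 genes were called, against 23.2% of all genes.

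With PGE2 present in both groups, stimulation changed 5 of the 6 genes, where 64.2% of tested genes were called (32.5% higher and 31.7% lower), and 3 of the 6 passed with a 2-fold change, against 22.1%. Adora2b rose from 0.451 to 12.3 CPM (4.75, SE 0.27, adjusted p = 1.10e-06), Ptger4 from 22.2 to 58.6 CPM (1.42, SE 0.147, adjusted p = 1.23e-05), Ptger2 from 7.7 to 15.3 CPM (1.01, SE 0.109, adjusted p = 1.67e-05) and Adora2a from 52.8 to 81.2 CPM (0.64, SE 0.123, adjusted p = 0.000894). For these 4 of the 6 genes the groups did not overlap, where 60.2% of tested genes did not overlap. Ptgir was at a log2 fold change of -0.60 (-1.23 to 0.02, adjusted p = 0.0824). It passed without replicate 4 of the stimulated PGE2 group (-0.89, adjusted p = 0.0106), which held its highest stimulated value of 3.12 CPM, and without replicate 4 of the unstimulated PGE2 group (-0.74, adjusted p = 0.048). The comparisons with and without PGE2 and those with and without beads share their samples, so their values are set side by side here and not counted as separate support.

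Gnas moved least. Its stimulated samples were at 50.3, 47.5, 43.6 and 38.3 CPM without PGE2 and 49.5, 45.6, 40.9 and 46.8 CPM with PGE2. It was called higher with stimulation by a log2 fold change of 0.29 without PGE2 (SE 0.116, adjusted p = 0.0443) and 0.30 with PGE2 (SE 0.0958, adjusted p = 0.0183), although the groups overlapped in both cases. The calls held in 9 and 10 of 18 alternatives. With upper-quartile factors, which shifted the median log2 fold change of all genes by -0.10 and -0.13 in these comparisons, Gnas was at 0.19 (adjusted p = 0.133) and 0.17 (adjusted p = 0.103). Without PGE2 the call was lost when replicate 1, 2 or 3 of the stimulated group (adjusted p = 0.104, 0.0988 and 0.0544) or replicate 2 or 4 of the unstimulated group (0.0507 and 0.114) was left out. With PGE2 it was lost without replicate 2 of the stimulated group (0.0743) or replicate 3 or 4 of the unstimulated group (0.129 and 0.0505).

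The Gnas row also sums a complex locus. Its 11186 exon bases include the alternative starts of the locus (Nesp and XL alpha s, which share the downstream exons with Gs alpha), so a change of a single start cannot be told apart from the sum. On the opposite strand, Nespas shares 8.83% of these bases and Gm20721 13.1%, and the use of strand in the counting is not given in the sources used here. Gm20721 covers 1140 to 1466 bases of the transcripts Gnas-201, Gnas-202, Gnas-208 and Gnas-209. These are 32.4%, 37.6%, 85.4% and 32.4% of their exon bases. It covers 84.7% of Gnas-206 and 80.4% of Gnas-207, but 0% of Gnas-204 and Gnas-210. Gm20721 itself had 0 to 8 counts per library and Nespas 16 to 118. Among the receptors, Ptger4 shares 15.3% of its exon bases with Gm15937 (0 to 1 counts) and 1.23% with Ttc33, which had 450 to 1167 counts and means of 32.7 CPM in unstimulated and 20.3 CPM in stimulated cells without PGE2. Ptger2 shares 4.74% with Gm17173, whose group means of 1.34, 1.75, 6.12 and 3.66 CPM (in the order unstimulated without and with PGE2, stimulated without and with PGE2) followed the same order as those of Ptger2. Reads of these antisense pairs cannot be told apart where they overlap.

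Levels of different genes can be compared only per length, as the deposited FPKM (reads scaled by gene length and library size). The length counts all annotated exon bases of a gene, 3062 for Adora2a and 6648 for Ptger4, so the order depends on it. Before scaling by length, stimulated cells without PGE2 had means of 110 CPM for Ptger4 and 103 CPM for Adora2a. In the other groups Adora2a had the higher CPM. Adora2a was the highest of the 5 receptors in each group, with means of 11.9 ± 0.756 FPKM (SD, n = 4) in unstimulated cells without PGE2, 16.6 ± 1.05 with PGE2, 32 ± 8.22 in stimulated cells without PGE2 and 25.2 ± 4.89 with PGE2. Ptger4 came next at 4.76 ± 0.217, 3.22 ± 0.199, 15.8 ± 2.06 and 8.39 ± 1.89 FPKM in the same order of groups. Ptger2 was at 1.13 ± 0.0884, 1.43 ± 0.0648, 5.25 ± 1.05 and 2.8 ± 0.323 FPKM. The order below Ptger4 changed with the state of the cells: in unstimulated cells Ptger2 was followed by Ptgir (0.83 ± 0.15 and 0.87 ± 0.254 FPKM) and then Adora2b (0.318 ± 0.232 and 0.235 ± 0.0469 FPKM). In stimulated cells Adora2b reached 4.75 ± 0.174 FPKM without PGE2 and 6.32 ± 1.83 with PGE2, whereas Ptgir was last at 0.328 ± 0.0438 and 0.558 ± 0.226 FPKM. Neighbours whose samples overlapped in this order were Ptger2 and Ptgir in unstimulated cells without PGE2, Ptger2 and Adora2b in stimulated cells without PGE2, and Ptger4 and Adora2b in stimulated cells with PGE2.

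The sum over the 5 receptors was 19 ± 0.984 FPKM in unstimulated cells without PGE2, 22.4 ± 1.25 with PGE2, 58.2 ± 11.3 in stimulated cells without PGE2 and 43.3 ± 8.37 with PGE2. Adora2a made up 62.9%, 74.3%, 54.6% and 58.3% of it. In unstimulated cells the share of Ptger4 within the sum fell with PGE2, from 25.1 ± 0.983% to 14.4 ± 1.15%. The share of Ptger2 did not fall (5.93 ± 0.386% and 6.39 ± 0.251%). Ptger4 itself went from 4.76 to 3.22 FPKM there, while Adora2a, also part of the sum, went from 11.9 to 16.6 FPKM. In stimulated cells Ptger4 went from 27.4 ± 1.93% to 19.3 ± 1.45% and Ptger2 from 9.03 ± 0.248% to 6.54 ± 0.597%, and neither overlapped between the groups. Adora2b made up 8.37 ± 1.52% without PGE2 and 14.4 ± 2.2% with it. These shares depend on the gene lengths used and are descriptions, with no test.

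Ptger4 exceeded Ptger2 per length in every sample. The ratio of Ptger4 to Ptger2 FPKM was 3.92, 4.21, 4.02 and 4.86 in unstimulated cells without PGE2 and 2.28, 2.38, 2.06 and 2.3 with PGE2, since the 2 transcripts went in opposite directions. It was 2.82, 2.85, 3.29 and 3.2 in stimulated cells without PGE2 and 3.41, 3.05, 2.84 and 2.58 with PGE2, where both fell by similar factors and the samples overlapped.

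**Figure D3:**
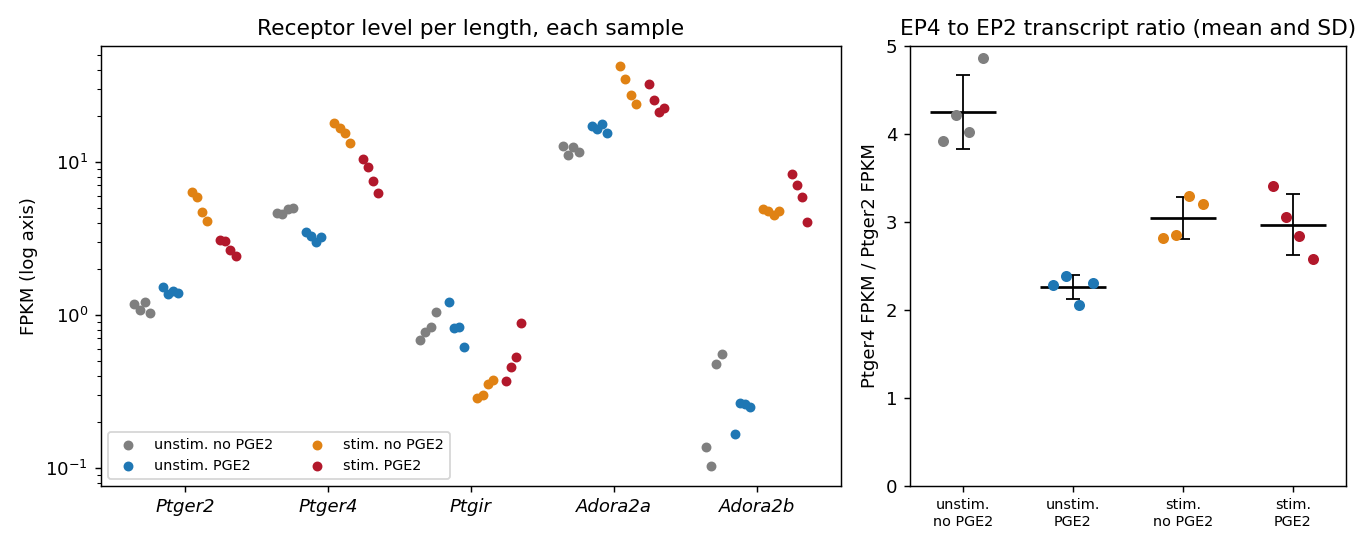
Left, FPKM of the 5 receptors in every sample on a log axis, coloured by group; right, the ratio of Ptger4 to Ptger2 FPKM on a linear axis from 0, with the mean and SD of 4 samples. Adora2a is highest in each group, Adora2b passes Ptgir in stimulated cells, and the ratio is 4.25 ± 0.424 in unstimulated cells without PGE2 and 2.25 ± 0.137 with PGE2.

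The other 8 receptors for prostanoids and adenosine were counted at low levels, apart from Tbxa2r, the thromboxane receptor, which signals mainly through Gq and G12/13. Tbxa2r had means of 54.6 CPM in unstimulated cells without PGE2, 62.6 with PGE2, 10.7 in stimulated cells without PGE2 and 18.3 with PGE2. It fell with stimulation (log2 fold change -2.37 without PGE2, adjusted p = 1.54e-08, and -1.76 with PGE2, adjusted p = 1.29e-06) and rose with PGE2 in stimulated cells (0.78, adjusted p = 0.00204), so its direction was opposite to that of Ptger2 and Ptger4 in these 3 comparisons. In unstimulated cells the PGE2 effect on Tbxa2r was 0.22 (adjusted p = 0.221), and with the replicate number as a block it passed at 0.22 (adjusted p = 0.000191). Ptger1, the gene of the Gq-coupled PGE2 receptor EP1, had group means of 1.53 to 2.23 CPM. It was not called in any comparison, except that with the number as a block it fell with stimulation without PGE2 (-0.60, adjusted p = 0.0392). Antisense exons overlap with Ptger1, so its reads are uncertain. Ptger3, for the Gi-coupled EP3, had group means of 0.0141 to 0.469 CPM, and Ptgdr2 and Adora3 had group means of at most 0.137 and 0.173 CPM. Ptgdr and Ptgfr had 0 counts in all 16 libraries, which allows a level of up to 0.132 CPM (3 counts), and Adora1 had a mean of at most 0.0105 CPM.

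The 44 other Gs-coupled receptors on a hand-written list were mostly not expressed, with 8 or 9 tested per comparison. PGE2 lowered 1 of 9 in stimulated cells (all genes, 9.84% called and 3.8% lower) and 2 of 8 in unstimulated cells (28.4% called and 15.5% lower). None were called higher by edgeR, also at an unadjusted p under 0.05 and with DESeq2 (0 in each comparison). Hrh2, the histamine H2 receptor, fell in both (-0.46, adjusted p = 0.0336, and -0.84, adjusted p = 0.00243). Stimulation without PGE2 raised 2 of 8 (1 with DESeq2) and lowered 6, where 31.7% of all genes were higher and 34.8% lower. Gpr65, a proton-sensing receptor, rose from 22.3 to 83.2 CPM (1.89, adjusted p = 3.32e-08), whereas Vipr1 (-1.90), Avpr2 (-1.62) and Calcrl (-1.44) fell as Ptgir did. For Avpr2, 81.3% of the exon bases lie opposite to Arhgap4, so its reads are uncertain. The median log2 fold change was -0.84 over these 8 receptors, 1.56 over the 6 genes described here and -0.03 over all tested genes.

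On a list of 27 other G protein subunits, PGE2 raised 3 of 18 tested in stimulated cells (all genes, 6.04% higher) and 7 of 20 in unstimulated cells (all genes, 12.9% higher), and edgeR called none lower, also at an unadjusted p under 0.05 and with DESeq2 (0 in each). Gng4, a gamma subunit, rose from 1.66 to 7.16 CPM in stimulated cells (2.15, adjusted p = 0.00306) and from 1.22 to 7.88 CPM in unstimulated cells (2.66, adjusted p = 3.50e-05). Gnal, the alpha subunit most related to that encoded by Gnas, rose in unstimulated cells (0.40, adjusted p = 0.00421), without overlap, and in stimulated cells (0.63, adjusted p = 0.0407), with overlapping groups, and Gna15 rose in stimulated cells (0.95, adjusted p = 0.035). Stimulation without PGE2 lowered 10 of 19 subunits and raised 4, so that 73.7% were called against 66.5% of all genes, with Gna15 (-2.33), Gnb4 (-0.93) and Gnai2 (-0.75) lower and Gng12 (1.34) higher. Of 5 receptor partners and chaperones of alpha subunits, Ramp3 rose with PGE2 by 3.25 in stimulated cells (adjusted p = 0.000303) and by 4.21 in unstimulated cells (adjusted p = 7.05e-05). RAMP proteins associate with receptors such as that encoded by Calcrl and carry them to the cell surface. Ric8b, a chaperone of Gs alpha, fell with stimulation (-0.80, adjusted p = 4.22e-06).

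Receptor kinases and arrestins switch off occupied receptors. All 6 tested genes of this list fell with stimulation, both without PGE2 (Grk5 -0.88, Grk4 -0.77, Grk2 -0.76 and Grk6 -0.74) and with PGE2, by less than 2-fold in each case, with 5 of the 6 called by DESeq2 in the first comparison. Among all tested genes 34.8% were lower with stimulation without PGE2 and 31.7% with PGE2. With PGE2, Arrb2 fell in stimulated (-0.33, adjusted p = 0.0272) and unstimulated cells (-0.46, adjusted p = 0.000854), while Arrb1 rose in unstimulated cells from 129 to 213 CPM (0.74, adjusted p = 0.000926). On the ligand side, edgeR called 0 of 7 tested genes of prostanoid synthesis, transport and breakdown with PGE2 in stimulated cells (2 at an unadjusted p under 0.05, 0 with DESeq2; all genes, 9.84% called). In unstimulated cells 2 of 7 fell, or 28.6%, where 28.4% of all genes were called and 15.5% were lower. These were Abcc4, an exporter of PGE2 and cAMP (-0.83, adjusted p = 0.000101), and Ptges3 (-0.44, adjusted p = 0.00213). Ptgs2, the inducible cyclooxygenase, had group means of 0.0662 to 0.808 CPM.

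Of the 10 genes on a list for the supply and clearance of adenosine, the ligand of A2a and A2b, 6 were called with PGE2 in stimulated cells (4 higher, 2 lower; all genes, 9.84% called) and 7 in unstimulated cells (3 higher, 4 lower; all genes, 28.4%). Nt5e, the ectoenzyme CD73 that makes adenosine from AMP, rose with PGE2 from 9.92 to 24.3 CPM in stimulated cells (1.30, adjusted p = 0.00415) and from 40.6 to 68.4 CPM in unstimulated cells (0.77, adjusted p = 8.11e-06). Adk, the kinase that turns adenosine back into AMP inside the cell, rose as well (0.73, adjusted p = 0.00223, and 1.09, adjusted p = 2.71e-05). Ada, the adenosine deaminase, fell in unstimulated cells (-0.55, adjusted p = 0.000603). Dpp4, also on this list, rose in stimulated (0.59, adjusted p = 0.000772) and unstimulated cells (0.40, adjusted p = 0.000408). The largest change of this list with PGE2 in unstimulated cells was a fall of Slc29a2 (-1.21, adjusted p = 0.000476). Stimulation without PGE2 lowered Nt5e (-2.06, adjusted p = 1.06e-07) and raised the nucleoside transporter gene Slc29a2 (3.70, adjusted p = 9.48e-09), so the transcripts of CD73 and of its product's receptors Adora2a and Adora2b went in opposite directions.

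**Figure D4:**
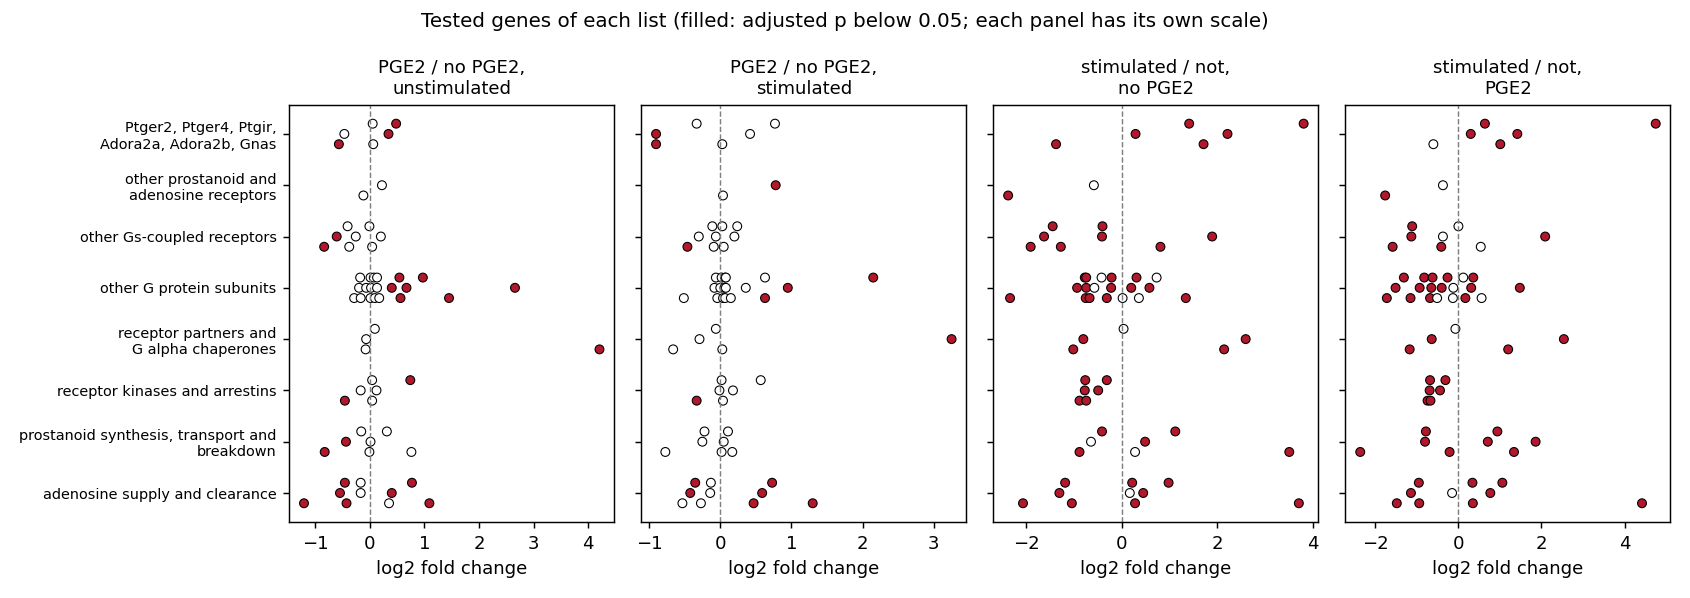
Log2 fold changes (x axes, each with its own range) of the tested genes on each list in the 4 comparisons; each point is a gene, filled where the adjusted p was below 0.05 in edgeR's quasi-likelihood test, and the vertical offset within a list only separates points. All 6 receptor kinases and arrestins lie to the left of 0 with stimulation, and Ramp3 is the rightmost point with PGE2 (4.21 and 3.25).

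Over the 16 samples, the genes whose centred log2 CPM was nearest to that of each gene were looked for in 9914 genes whose mean reached 5 CPM, by the root mean square difference. For Ptger2 these were Agpat4 (0.183), Ptprs (0.223) and Dusp2 (0.224), against a spread of Ptger2 about its own mean of 0.872. Agpat4 had group means of 26.8, 31.8, 108 and 72.3 CPM, in the same order as Ptger2. For Ptger4 (0.881 about its mean) the nearest were Osm (0.156), Larp1b (0.184) and Snx8 (0.189), and Osm had group means of 22, 15.4, 76.2 and 36 CPM. For Adora2a (0.569) they were Ubald2 (0.163), 1110032F04Rik (0.171) and S1pr2 (0.173). For Adora2b the nearest genes were Lad1 (0.464), Mir155hg (0.499) and Irf4 (0.51). These differences are larger, but so is the spread of Adora2b about its own mean (2.21). For Ptgir (0.623) the nearest genes included Zfp606 (0.235) and Sytl2 (0.249). For Gnas, whose own spread was 0.208, the nearest were Nhlrc3 (0.0905), Fam104a (0.0958) and Sppl2b (0.102). The samples share their groups and replicate numbers, so these differences are descriptions with no test.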

How the data were processed

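Poly(A)-selected RNA of 16 samples was sequenced in paired ends. The authors aligned the reads to mouse build GRCm38 with HISAT2 2.0.5 and counted them per gene with featureCounts 1.5.0-p3, and they deposited raw read counts and FPKM (scaled by gene length and mapped reads) for each sample. The use of strand is not given in the sources used here. The deposited gene coordinates of the 6 genes equal those of GENCODE M21, which gave the exon overlaps. No 2 replicates agreed within sampling noise.

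Counts were fitted with edgeR 4.0.16 (R 4.3.3; filterByExpr with a minimum count of 10, TMM factors, quasi-likelihood test) on the 8 samples of each comparison, or all 16 for the interaction, with Benjamini-Hochberg adjustment over all tested genes and a threshold of 0.05. CPM were scaled by TMM over all 16 samples. Log2 fold changes are given as first group over second. Alternatives were DESeq2 1.42.0, limma 3.58.1 on log2(FPKM + 1) or log2(FPKM + 0.1) with or without a filter at a mean of 1 FPKM, RLE and upper-quartile factors, other count filters, 1 fit of all samples, a replicate block, a 2-fold minimum and leaving out each sample. The fits were tested on simulated counts, which had the same spread for every gene and no effect of the replicate number. They do not cover the shared deviations of same-numbered samples. The correlation of deviations from the group means between same-numbered samples was 0.19 to 0.423 for PGE2 in stimulated cells. It was 0.137 to 0.444 for PGE2 in unstimulated cells and 0.112 to 0.359 for stimulation without PGE2. In these comparisons the numbers were taken as pairing the samples from the data alone. Only the replicate block used this pairing, and the main fits had no term for the number. For stimulation with PGE2 the correlation was 0.0439 to 0.281. Replicate 2 for PGE2 in stimulated cells was not best matched to its own number. The same held for replicates 2 and 4 for stimulation with PGE2. Depth limits Adora2b in unstimulated cells and Ptgir most.

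The 6 genes and the gene lists were chosen with earlier results of these data known. Named from the lists were all prostanoid and adenosine receptors and, per comparison and list, up to 4 called genes with the largest change and a mean of at least 1 CPM. A few genes that met this rule are left out of the text.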

Additional observations from a re-analysis of the deposited data

Results flagged for a closer look

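In the unstimulated PGE2 group, 1 sample had an Adora2b level far below the other 3 (0.316 CPM against 0.484 to 0.507 CPM), with a gap of 0.879 of the range of the group. In the unstimulated group without PGE2, 1 sample had a Gnas level far below the other 3 (29.3 CPM against 38.4 to 39.6 CPM), also with a gap of 0.879 of the range. Chance alone marks about 1 in 20 groups of 4 in this way, and 24 groups were examined. The Adora2b value rests on few counts. Without the Gnas sample, replicate 4, the PGE2 effect on Gnas in unstimulated cells was -0.03.

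The PGE2 effect on Ptger2 differed between stimulated and unstimulated cells by -1.23 on the log2 scale in the interaction test: PGE2 went with a higher level in IL-2 alone and with a lower level under the beads.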

How the results depend on the processing

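Of 596 recomputed values of the 6 genes, 539 kept their direction and their side of the threshold, 33 lost a call, 14 gained a call and 10 changed sign without being called. With PGE2 in stimulated cells, 1370 genes were called; the count was 2161 in 1 fit of all samples, 2066 with DESeq2, 679 with limma on log2(FPKM + 1) without a filter, 243 with a 2-fold minimum and 630 to 1854 when single samples were left out. It fell by over 1.5 times without replicate 3 (630) or 4 (843) of the PGE2 group or replicate 1 (760), 2 (630) or 3 (792) of the untreated group. A 2-fold minimum left 0 of the 6 genes called in either PGE2 comparison, 3 with stimulation under PGE2, and 490, 3301, 3210 and 35 genes in all for PGE2 in unstimulated cells, stimulation without PGE2, stimulation with PGE2 and the interaction. For the interaction, 113 genes were called; the count was 236 with DESeq2, 53, 43 and 37 with limma on log2(FPKM + 0.1), on log2(FPKM + 1) and without a filter, and 44 to 217 with single samples left out, with 1 to 2 of the 6 genes. It moved by over 1.5 times without replicate 2 or 4 of the stimulated PGE2 group, 1, 2, 3 or 4 of the stimulated untreated group, 2 or 3 of the unstimulated PGE2 group or 1 or 2 of the unstimulated untreated group. The gene called beside Ptger2 was Adora2a, with DESeq2 (adjusted p = 0.0207), without a filter (0.0218), with upper-quartile factors (0.0453) and with the replicate block, so that 2 genes were called there.

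With the replicate number as a block, 5544 genes and 5 of the 6 were called for PGE2 in stimulated cells, 6938 genes in place of 4122 for PGE2 in unstimulated cells, and 408 genes and 2 of the 6 for the interaction (Adora2a -0.79, adjusted p = 0.00935). Apart from the 3 calls gained in stimulated cells and those of Adora2a, Tbxa2r and Ptger1, the block changed no call of a named gene. The cause of these differences was not tested.

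With single samples left out, values that changed sign stayed uncalled: Gnas from -0.04 to 0.1 and Ptger1 from -0.1 to 0.27 for PGE2 in stimulated cells, Ptgir from -0.14 to 0.18, Gnas from -0.03 to 0.11 and Ptger1 from -0.22 to 0.06 for PGE2 in unstimulated cells, and Gnas from -0.09 to 0.07 and Ptger1 from -0.00088 to 0.41 for the interaction. The mean ratio of Ptger4 to Ptger2 was recomputed without each sample as an alternative chosen after seeing the data. It ran from 4.05 to 4.36 in unstimulated cells without PGE2 and from 2.21 to 2.32 with PGE2. In stimulated cells it ran from 2.96 to 3.12 without PGE2 and from 2.82 to 3.1 with PGE2. These ranges are descriptions, with no test.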
